A study of Homo sapiens with 24 samples.

Results

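RNA captured after light-driven labelling around the P-body helicase DDX6 was compared with the same RNA before capture, in HEK293T cells that had not been stressed. The comparison was defined by the submitters' sample labels, as 2 labelled captures against 2 inputs, and 2 captures made without the probe served to show what the beads bound without label. These 6 libraries are part of a series of 24, which also holds the same cells under arsenite, and cells with the fusion proteins TIA1-miniSOG or G3BP2-miniSOG, all of them under arsenite. HEK293T is a human embryonic kidney line that expresses the SV40 large T antigen.

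All 6 libraries came from HEK293T cells stably expressing miniSOG-DDX6, a fusion of DDX6 with a small flavoprotein that makes singlet oxygen in blue light. The labels do not give the promoter of the transgene, whether the line is 1 clone or a pool, or whether replicates were separate cultures. The p-values rest only on the spread between replicates, estimated over all 24 libraries of the series, and this spread may be technical. The unstressed cells were rinsed and held in HBSS, a salt solution, with 10 mM propargylamine for 5 min, and then lit for 15 min at 24 mW/cm2. Oxidised bases react with propargylamine, and its alkyne was then joined to biotin-azide by click chemistry on the extracted RNA. Part of each labelled RNA was kept as input and the rest was bound to streptavidin beads. The no-probe captures came from the same cells without propargylamine. The cells under arsenite, used below for 1 comparison, received 0.5 mM sodium arsenite for 1 hr in all.

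DDX6 is a DEAD-box RNA helicase of P-bodies, cytoplasmic granules that hold translationally repressed mRNAs together with the enzymes that remove their caps. It binds the decapping activators EDC3 and PATL1, the repressors LSM14A and EIF4ENIF1, and the CNOT1 scaffold of the CCR4-NOT deadenylase. Singlet oxygen reacts among the bases of RNA mainly with guanine and travels only a short way in the cell, so that the label marks RNA close to the fusion protein.

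The labelled captures held 5202672 and 5108679 counts, the inputs 3673077 and 3398359, and the no-probe captures 1712475 and 2941488. Replicates correlated with r = 0.989, 0.976 and 0.959 across the 14360 tested genes on the log2 scale, in the same order, and differed by more than counting noise. DDX6 stood at 1160 and 1109 CPM (counts adjusted for library size) in the inputs, against 138.2 to 181 CPM in the 4 inputs of the other lines, all from arsenite-treated cells, and 1124 and 1100 CPM in the arsenite inputs of the same line. Reads of the transgene and of the endogenous gene cannot be told apart in the table. Of 10 genes taken as markers of the line, 9 were measured, among them LIN28B at 68.6 and 73.1 CPM in the inputs, while SOX11 was at 0. Of 15 markers of other cell types, PTPRC, CD3E, HBB, APOB, MYH7, DES, PECAM1, KRT5 and KRT14 were at 0 in both inputs, and only COL1A1, at 18.6 and 22.5 CPM, passed 10 CPM.

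Capture changed the kind of RNA that was sequenced. Genes of the mitochondrial genome took 27.5% and 29.8% of counts in the inputs, 4.11% and 3.63% in the labelled captures, and 18.8% and 23.6% in the no-probe captures. Nuclear protein-coding genes took 55.0% and 52.2% of the inputs and 85.7% and 88.1% of the labelled captures. Small noncoding RNAs made up 2.56% and 2.22% of the inputs and 0.372% and 0.378% of the labelled captures. In each of these classes the labelled captures lay apart from the inputs. Levels below are therefore shares of a library after TMM scaling, which sets libraries to a common median gene, and do not give amounts of RNA per cell.

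Of the 14360 genes tested, 3285 (22.9%) were higher and 2819 (19.6%) were lower in the labelled capture than in the input, at an adjusted p under 0.05 (the quasi-likelihood test of edgeR, adjusted by Benjamini and Hochberg's method, as for each p below). The rises were moderate, with a median log2 fold change of 0.80 among the higher genes, and the falls larger, with a median of -1.25 among the lower ones. In all, 877 of the higher genes were past 1 on the log2 scale and 1760 of the lower genes past -1. A test against a change of at least 1 passed 33 genes upward and 433 downward. Protein-coding genes rose more often than other types, as 3231 of 12339 were higher (26.2%) and 1991 lower (16.1%). Of 334 long intergenic noncoding RNAs 7 were higher and 121 lower, of 479 antisense RNAs 4 and 192, and of 69 snoRNAs 0 and 68. Scaled by total counts alone, the median of all genes moved from 0.01 to 0.47 on the log2 scale, and 5863 genes were higher and 1205 lower, so directions below are relative to the median gene. Leaving out 1 of the 4 libraries left 2258 to 2685 genes higher. The lower genes then numbered 1724 without labelled capture replicate 1, 1873 without its replicate 2, 1638 without input replicate 1 and 1871 without its replicate 2. Input and labelled capture came from the same labelled RNA, so a lower gene was captured less than the median gene. As the cultures were sampled whole, differences in capture between cells cannot be seen.

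**Figure D1:**
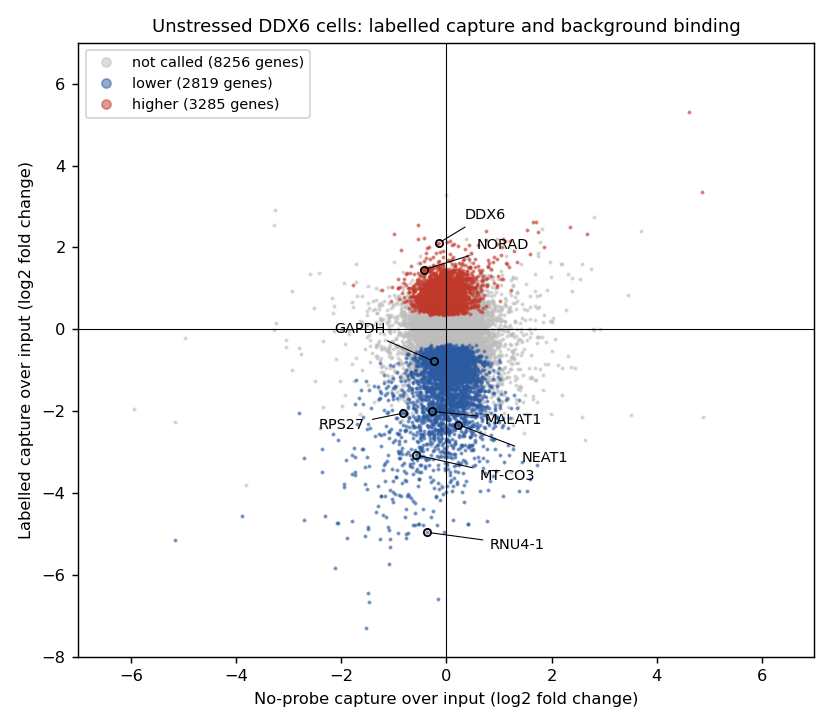
Log2 fold change of the labelled capture over input (vertical axis) against that of the no-probe capture over input (horizontal axis) for the 14360 tested genes, with the 3285 called higher in red, the 2819 called lower in blue and the rest in grey. Called genes spread along the vertical axis, with DDX6 at 2.1 and NORAD at 1.45 above it and RNU4-1 at -4.96 below, while most genes lay close to 0 on the horizontal axis; both axes share the same inputs.

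The labelled capture and the no-probe capture passed through the same beads, and against that background 3598 genes (25.1%) were higher and 3312 (23.1%) lower. Of the genes above input, 2860 (19.9% of all tested) were also above the no-probe capture and 425 (2.96%) were not. Among the latter was KLF4, a transcription factor gene, with 3.50 and 5.16 CPM in the labelled captures, 0.847 and 1.29 CPM in the inputs and 3.14 and 4.43 CPM in the no-probe captures. KLF4 was higher than input (2.00 ± 0.61 on the log2 scale, adjusted p = 0.00921), but not without labelled capture replicate 2 (adjusted p = 0.0666) or input replicate 1 (adjusted p = 0.0951).

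The no-probe capture over input passed 1 gene in each direction (0.00696% each) when the spread was estimated over all 24 libraries, with 1194 genes (8.31%) at an unadjusted p under 0.05 and 5 higher and 3 lower by DESeq2. Fitted to the 6 unstressed libraries alone, 235 genes were higher and 201 lower. ESRRA, which encodes an orphan nuclear receptor, stood at 36.1 and 53.8 CPM in the no-probe captures and 16.1 and 23.2 CPM in the inputs (1.23 on the log2 scale, adjusted p = 0.0235), but not past the threshold without input replicate 1 (adjusted p = 0.943) or no-probe capture replicate 2 (adjusted p = 0.34). A gene of 5.8S ribosomal RNA, RNA5-8SN2, stood at 20.4 and 35.1 CPM without probe and 387 and 453 CPM in the inputs (-3.88, adjusted p = 0.0193), but not past it without no-probe capture replicate 1 (adjusted p = 0.346). Other genes of that name are near identical, so the value of this copy is uncertain. ESRRA was also higher than input in the labelled capture, at 39.7 and 36.5 CPM (0.96 ± 0.21, adjusted p = 0.000436), where the difference from the no-probe capture did not pass (-0.26, adjusted p = 0.26).

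Among genes at 10 CPM or more in the captures and also above the no-probe capture, DDX6 itself had one of the 12 largest rises. Its RNA (ENSG00000110367, chr11:118747766-118791149, minus strand, GRCh38) stood at 5057 and 4704 CPM in the labelled captures, 1160 and 1109 CPM in the inputs and 1055 and 994 CPM in the no-probe captures. The labelled captures lay above all other unstressed libraries, and the rise was 4.3-fold (2.1 ± 0.19 on the log2 scale, SE of the model, adjusted p = 1.26e-09, n = 2 against 2).

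The other 11 of these genes included 6 that encode zinc finger proteins of the ZNF family. These were ZNF77, ZNF823, ZNF420, ZNF627, ZNF92 and ZNF555, with log2 fold changes between 1.79 and 2.15. ZNF823, for example, stood at 15.2 and 15.8 CPM in the captures and at 2.54 and 4.51 CPM in the inputs (2.15 ± 0.35, adjusted p = 2.01e-05). ZNF77 stood at 10.5 and 11.1 CPM in the labelled captures and 3.11 and 1.61 CPM in the inputs. Its no-probe captures were at 5.24 and 5.79 CPM, 1.20 above input on the log2 scale (adjusted p = 0.439). Over the no-probe capture it rose by only 0.95. MARCH7, which encodes a ubiquitin ligase (chr2:159712457-159771027, plus strand), was the most precisely measured of them. It stood at 244 and 240 CPM in the captures, 55.1 and 58.6 CPM in the inputs and 48.7 and 51.1 CPM without probe (2.09 ± 0.16, 4.26-fold, adjusted p = 4.25e-11), although 38% of its exonic length overlaps another gene. PNPLA8, a phospholipase of mitochondria and peroxisomes, rose from 11.9 and 11.3 CPM to 50.9 and 44.7 CPM (2.04 ± 0.27, adjusted p = 9.98e-07). RRM2B, the p53-inducible subunit of ribonucleotide reductase, rose from 27.7 and 27.0 CPM to 107 and 89.9 CPM (1.84 ± 0.22, adjusted p = 1.73e-07). MUM1L1 had the largest estimate of the 12, 2.20 ± 0.42 (adjusted p = 0.000129), at only 3.67 and 1.61 CPM in the inputs. For each of these genes both captures lay above both inputs, as in 39.7% of all genes, which the rule for naming them required. Both captures lay below both inputs in 37.4%.

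Over the whole ZNF family, 118 of 406 tested genes were higher (29.1%, against 22.9% of all genes) and 25 lower (6.16%, against 19.6%), with a median of 0.40. Many of these proteins are transcriptional repressors of the KRAB class. At the other end ZNF544 fell by 2.88 ± 0.81 on the log2 scale (adjusted p = 0.00508) on 1 and 3 reads in the captures, and the call was lost without labelled capture replicate 1 (adjusted p = 0.0829) or input replicate 2 (adjusted p = 0.106).

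The mRNAs of the decapping machinery and of P-body core proteins were split. Of the 21 genes on this list 20 were tested, LSM2 having been left out by the filter on low counts, and 7 were higher (35.0%, against 22.9% of all genes) and 2 lower (10.0%, against 19.6%), with a median of 0.30. DCP2, the decapping enzyme (chr5:112976702-113020970, plus strand), stood at 301 and 275 CPM in the captures, 124 and 149 CPM in the inputs and 116 and 115 CPM without probe. It rose 2.11-fold (1.08 ± 0.18, adjusted p = 3.4e-05). PNRC2, which activates DCP1A and links decapping to nonsense-mediated decay (chr1:23956839-23963462, plus strand), stood at 113 and 111 CPM in the captures, 47.7 and 49.2 CPM in the inputs and 38.8 and 41.6 CPM without probe. It rose 2.31-fold (1.21 ± 0.17, adjusted p = 3.47e-06). For both genes the captures lay above the other 4 libraries.

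LSM14A, a translational repressor that binds DDX6, rose by 1.97 ± 0.42 (adjusted p = 0.000377) at low levels, with 94 and 48 reads in the captures and 13 and 5 in the inputs. EDC3, a scaffold of decapping, stood at 76.9 and 69.9 CPM in the captures and 46.0 and 48.0 CPM in the inputs (0.64 ± 0.17, adjusted p = 0.00314), but its no-probe captures were at 61.3 and 63.3 CPM and the difference from them did not pass (0.23, adjusted p = 0.26). XRN1, the 5′ to 3′ exonuclease that follows decapping, rose by 0.59 ± 0.19 (adjusted p = 0.0106). Its call was lost without labelled capture replicate 1 (adjusted p = 0.099) and without input replicate 1 (adjusted p = 0.0912). DCP1A, the partner of DCP2, rose by 0.57 ± 0.17 (adjusted p = 0.0065), but not without labelled capture replicate 1 (adjusted p = 0.0807).

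The 2 members that fell were LSM7, of the ring that caps deadenylated 3′ ends, and NBDY, a micropeptide that binds EDC4. LSM7 stood at 25.4 and 25.2 CPM in the captures and 47.4 and 51.2 CPM in the inputs (-0.96 ± 0.20, adjusted p = 0.00026). NBDY stood at 9.12 and 10.9 CPM against 21.5 and 20.9 CPM (-1.08 ± 0.23, adjusted p = 0.000484). The other 11 did not pass, with log2 fold changes from -0.44 for LSM3 to 0.54 for LSM1. Among them were EDC4, the large decapping scaffold, at 0.23 ± 0.17, EIF4ENIF1, which tethers eIF4E in P-bodies, at 0.34 ± 0.20, and PATL1, a bridge between DDX6 and the LSM ring, at -0.24 ± 0.18. DCP1B, LSM14B, LSM4, LSM5, LSM6 and EIF4E2 completed the set.

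**Figure D2:**
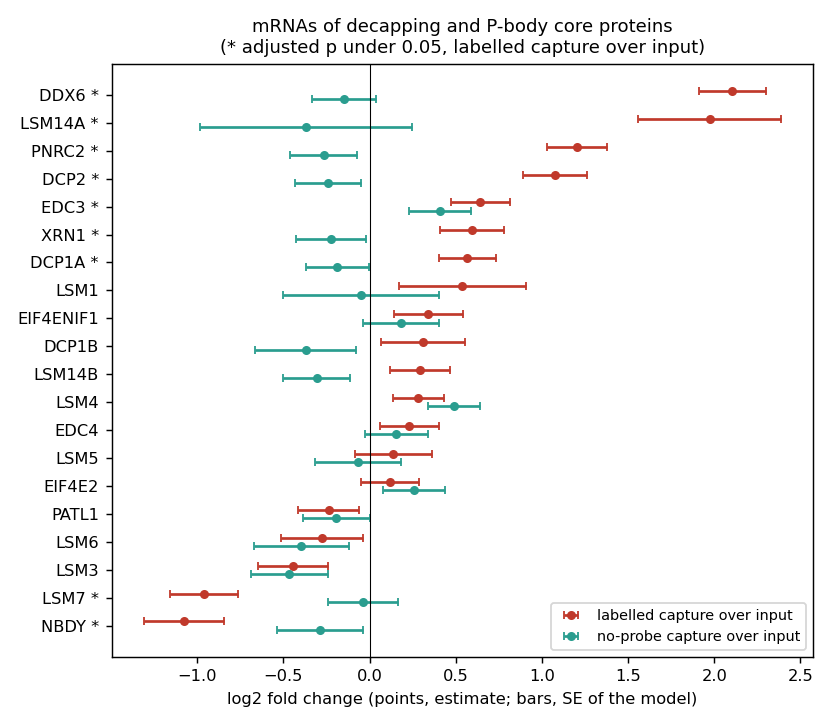
Log2 fold change over input, with the SE of the model as bars, for the mRNAs of 20 decapping and P-body core proteins in the labelled capture (red) and the no-probe capture (green), 2 libraries per group. DDX6 at 2.1, LSM14A at 1.97, PNRC2 at 1.21 and DCP2 at 1.08 stand furthest to the right, and LSM7 and NBDY are below 0; asterisks mark the 9 genes past the threshold.

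The mRNAs of deadenylases, enzymes that shorten poly(A) tails before decapping, rose in greater proportion. Of 19 tested genes of the CCR4-NOT and PAN2-PAN3 complexes and their partners, 11 were higher (57.9%, against 22.9% of all genes) and 2 lower (10.5%, against 19.6%), with a median of 0.65. CNOT1, the scaffold that contacts DDX6, stood at 550 and 540 CPM in the captures and 336 and 339 CPM in the inputs (0.69 ± 0.16, adjusted p = 0.00085). The catalytic subunits CNOT6L (1.02 ± 0.18) and CNOT7 (0.73 ± 0.18) and the antiproliferative adaptors BTG3 (1.16 ± 0.19) and TOB1 (0.65 ± 0.19) rose too. PARN, another poly(A) ribonuclease, had the largest estimate, 2.05 ± 0.71 (adjusted p = 0.0212), on 3 and 5 input reads, and lost the call without labelled capture replicate 1 (adjusted p = 0.146) or input replicate 1 (adjusted p = 0.165). CNOT3 fell by 1.07 ± 0.36 on the log2 scale (adjusted p = 0.0187), but not without labelled capture replicate 2 (adjusted p = 0.137) or input replicate 1 (adjusted p = 0.379). Genes named here and below beyond the highest and lowest member of each list were picked after their values were seen.

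The proteins of microRNA silencing and of nonsense-mediated decay meet DDX6 at the same mRNAs. Only the mRNAs that encode such proteins were measured here, and the place of the proteins was not. Of 16 microRNA pathway genes 1 was higher (6.25%, against 22.9% of all genes) and 3 lower (18.8%, against 19.6%), with a median of -0.17. DGCR8, the RNA-binding partner of DROSHA in the nucleus, stood at 21.0 and 23.6 CPM in the captures, 59.9 and 66.9 CPM in the inputs and 68.1 and 73.6 CPM without probe (-1.50 ± 0.23, adjusted p = 8e-06). DICER1, which cuts microRNA precursors in the cytoplasm, stood at 199 and 191 CPM against 106 and 135 CPM in the inputs (0.69 ± 0.19, adjusted p = 0.00371), but not past the threshold without input replicate 1 (adjusted p = 0.0803). TNRC6C, which recruits CCR4-NOT to Argonaute, and the helicase MOV10 were lower by -0.64 ± 0.25 and -0.56 ± 0.18 (adjusted p = 0.036 and 0.012), and both calls were lost when any 1 of the 4 libraries was left out (largest adjusted p = 0.334 and 0.112). Of 16 decay factors 4 were higher, close to the share of all genes, and 2 lower (12.5%), with a median of 0.05. SMG8 and SMG9, 2 subunits of the kinase complex that phosphorylates UPF1, went opposite ways. SMG8 rose from 28.8 and 28.0 CPM to 62.3 and 68.2 CPM (1.20 ± 0.20, adjusted p = 1.81e-05), and SMG9 fell from 36.1 and 36.7 CPM to 14.7 and 16.8 CPM (-1.20 ± 0.22, adjusted p = 6.45e-05).

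The mRNAs of cytoplasmic regulators of mRNA stability were well represented. Of 34 tested mRNA-binding regulators 16 were higher (47.1%, against 22.9% of all genes) and 5 lower (14.7%), with a median of 0.43. PUM2, a Pumilio repressor, rose from 107 and 103 CPM to 219 and 213 CPM (1.04 ± 0.17, adjusted p = 2.2e-05). The m6A readers YTHDF3 (1.33 ± 0.15, adjusted p = 5.94e-08) and YTHDF2 (1.02 ± 0.17, adjusted p = 2.7e-05) rose, as did LIN28B (1.23 ± 0.17), a binder of let-7 precursors, and FMR1 (0.61 ± 0.15), the fragile X protein. HNRNPD, an AU-rich element binding protein, was the lowest, with 224 and 238 CPM in the captures and 380 and 403 CPM in the inputs (-0.76 ± 0.18, adjusted p = 0.00115). Its difference from the no-probe capture did not pass (-0.43, adjusted p = 0.0503).

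The mRNAs of proteins of stress granules, which condense mainly under stress, gave 8 higher and 4 lower of 25, with a median of 0.04. These shares were 32.0% and 16.0%, against 22.9% and 19.6% of all genes. G3BP2 rose from 137 and 155 CPM to 379 and 324 CPM (1.27 ± 0.18, adjusted p = 2.45e-06), and G3BP1 (0.97 ± 0.19) and CAPRIN1 (0.81 ± 0.18), its partner, also rose. YBX1, a cold-shock domain protein of mRNPs, stood at 395 and 416 CPM against 728 and 686 CPM in the inputs (-0.80 ± 0.21, adjusted p = 0.00286), and the difference from the no-probe capture did not pass (-0.49, adjusted p = 0.0541).

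Among long noncoding RNAs, NORAD rose and most of those listed as nuclear fell. NORAD, a cytoplasmic RNA that sequesters Pumilio proteins (chr20:36045622-36050960, minus strand, GRCh38), stood at 539 and 533 CPM in the captures, 184 and 208 CPM in the inputs and 148 and 142 CPM without probe. It rose 2.74-fold (1.45 ± 0.20, adjusted p = 1.7e-06), and both captures lay above the other 4 libraries. Its annotated transcript of 5339 nt (GENCODE release 29) holds 15 Pumilio elements, searched as TGTANATA on the transcript strand, with no overlap between them. Of 14327 tested genes with a transcript 32.6% hold at least 1 such element in their longest transcript, and 4, NORAD included, hold as many or more. Stretches of 30 bases around 4 of them are shown because they carry the repeated motif of this transcript, with the element in capitals and its first base in the transcript in the name:
NORAD 761: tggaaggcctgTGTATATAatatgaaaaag
NORAD 1241: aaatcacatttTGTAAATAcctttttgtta
NORAD 1825: aaataccacttTGTAAATAtctttttgcta
NORAD 2972: caaccctactgTGTATATAgcggacaaact

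MALAT1, of nuclear speckles (chr11:65497688-65506516, plus strand), stood at 585 and 556 CPM in the captures, 2370 and 2216 CPM in the inputs and 1899 and 1885 CPM without probe (-2.01 ± 0.23, adjusted p = 7.07e-08). NEAT1, of paraspeckles, stood at 76.1 and 82.6 CPM against 383 and 415 CPM in the inputs (-2.33 ± 0.25, adjusted p = 2.1e-08). Of 12 tested long noncoding RNAs listed as nuclear 7 were lower (58.3%, against 19.6%), with a median of -1.81, among them KCNQ1OT1, an imprinted antisense transcript, at -2.44 ± 0.17. MIAT was lower by -2.73 ± 0.73, but not without input replicate 2 (adjusted p = 0.197). The 1 that rose was OIP5-AS1, which is known in the cytoplasm as well, from 84.2 and 81.7 CPM to 172 and 138 CPM (0.90 ± 0.22, adjusted p = 0.00155). Host genes of snoRNAs, whose spliced transcripts are mostly unstable, gave 21 lower and 0 higher of 25 (84.0% lower), with a median of -1.52. GAS5 fell from 194 and 178 CPM to 67.5 and 54.7 CPM (-1.61 ± 0.17, adjusted p = 1.6e-08). SNHG9 had 0 reads in both captures and 11 and 9 in the inputs.

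**Figure D3:**
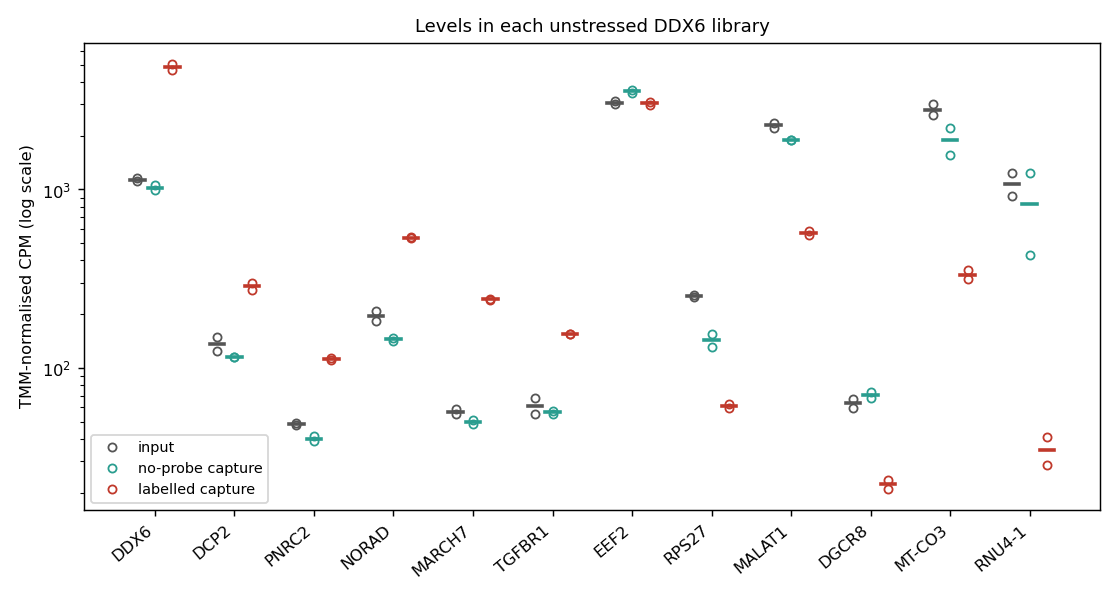
TMM-normalised CPM (log axis) of 12 RNAs in each input (grey), no-probe capture (green) and labelled capture (red), with circles for the 2 libraries of a group and bars for their mean. DDX6, DCP2, PNRC2, NORAD, MARCH7 and TGFBR1 were highest in the labelled captures, EEF2 lay between 2983 and 3624 CPM throughout, and RPS27, MALAT1, DGCR8, MT-CO3 and RNU4-1 were lowest there.

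Among mRNAs for cell division, genome maintenance and signalling the shares that rose differed from list to list. Of 45 genes of mitosis and the kinetochore 34 were higher (75.6%, against 22.9% of all genes) and none was lower, with a median of 0.67 against -0.19 for the no-probe capture. TOP2A, the topoisomerase that untangles sister chromatids, rose from 352 and 362 CPM to 953 and 809 CPM (1.30 ± 0.19, adjusted p = 4.2e-06). KIF18A (1.38 ± 0.20) and KIF11 (1.13 ± 0.16), kinesins of the spindle, KNL1 (1.04 ± 0.17), of the outer kinetochore, and TTK (1.00 ± 0.15), a checkpoint kinase, rose as well. AURKB had the lowest value, -0.39 ± 0.18, and did not pass (adjusted p = 0.0749). Of 35 genes of CEP centrosome proteins 13 were higher and 5 lower (37.1% and 14.3%). CEP97, which caps centrioles, rose by 1.13 ± 0.20, and CEP164, of the distal appendages, was lower by -0.73 ± 0.21, but not without labelled capture replicate 1 (adjusted p = 0.111) or input replicate 1 (adjusted p = 0.061).

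Of 52 DNA repair genes 28 were higher (53.8%, against 22.9% of all genes) and 3 lower (5.77%, against 19.6%). Their median was 0.49. NBN, of the MRN complex at double-strand breaks, rose from 55.9 and 58.9 CPM to 162 and 141 CPM (1.40 ± 0.21, adjusted p = 4.58e-06). MSH6, of mismatch repair (1.38 ± 0.16), and BRCA1 (0.94 ± 0.14) rose. OGG1, the glycosylase for oxidised guanine in DNA, was lower by -0.85 ± 0.22 (adjusted p = 0.00316), with an adjusted p of 0.0503 without input replicate 2. Among 45 cyclins and regulators of their kinases 18 were higher and 5 lower (40.0% and 11.1%). CDKN1B, an inhibitor that Pumilio proteins repress, rose from 24.3 and 26.4 CPM to 72.3 and 71.6 CPM (1.51 ± 0.16, adjusted p = 2.8e-08), and CDK1 (1.06 ± 0.18) and CCNA2 (1.00 ± 0.16) rose. CCNL2, a cyclin of splicing speckles, fell from 116 and 109 CPM to 37.1 and 37.8 CPM (-1.59 ± 0.15, adjusted p = 2.72e-09).

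Of 48 chromatin regulators 18 were higher and 4 lower (37.5% and 8.33%, against 22.9% and 19.6% of all genes). Their median was 0.29. ATAD2 (1.32 ± 0.18) and the Polycomb subunits SUZ12 (1.31 ± 0.16) and EZH2 (0.64 ± 0.15) rose, while KMT2D, a histone H3 lysine methyltransferase, fell from 225 and 230 CPM to 127 and 134 CPM (-0.80 ± 0.16, adjusted p = 0.000216). Of 55 genes of developmental signalling 21 were higher and 6 lower (38.2% and 10.9%), with a median of 0.35. TGFBR1, the type I receptor for TGF-beta, rose from 55.1 and 67.6 CPM to 155 and 154 CPM (1.33 ± 0.16, adjusted p = 3.03e-07). The Wnt receptor FZD6 (1.26 ± 0.24) and CTNNB1, beta-catenin (1.02 ± 0.17), rose, and HES4, a Notch-responsive repressor, fell from 84.4 and 92.4 CPM to 34.6 and 40.6 CPM (-1.23 ± 0.22, adjusted p = 5.51e-05).

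Of 37 HECT and cullin ubiquitin ligases 21 were higher (56.8%, against 22.9% of all genes) and none lower (against 19.6%). Their median was 0.59. CUL2, the scaffold of the VHL ligase, rose from 33.3 and 38.6 CPM to 103 and 92.7 CPM (1.44 ± 0.18, adjusted p = 4.83e-07), and NEDD4 (1.38 ± 0.26) and ITCH (1.00 ± 0.18) rose. CUL9 was the lowest, at -0.48 ± 0.22 (adjusted p = 0.0832). The mRNAs of chaperones and heat shock proteins gave 19 higher and 2 lower of 30 (63.3% and 6.67%), with a median of 0.63. The abundant cytosolic chaperone HSP90AB1 rose from 1232 and 1235 CPM to 2185 and 2047 CPM (0.78 ± 0.19, adjusted p = 0.00183), and DNAJB9, of the ER, rose by 1.77 ± 0.32 (adjusted p = 5.7e-05). HSPB1, a small heat shock protein, fell from 36.7 and 36.0 CPM to 14.1 and 15.5 CPM (-1.29 ± 0.23, adjusted p = 4.5e-05).

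The mRNAs of the ER translocon and folding machinery gave 19 higher and 9 lower of 42 (45.2% and 21.4%), with a median of 0.36. The lectins ERLEC1 (1.47 ± 0.21) and CANX (0.76 ± 0.17) and the translocon subunit SEC62 (0.97 ± 0.19) rose. OST4, a very small subunit of oligosaccharyltransferase, fell from 20.9 and 18.7 CPM to 7.60 and 5.02 CPM (-1.65 ± 0.28, adjusted p = 3.22e-05). Immediate early genes gave 6 higher and 2 lower of 29 (20.7% and 6.9%, against 22.9% and 19.6% of all genes), with a median of 0.34. MYC rose from 177 and 174 CPM to 289 and 279 CPM (0.69 ± 0.18, adjusted p = 0.0032). With 1 library left out it lay between 0.70 and 0.75. The calls of EGR1 (-1.16), FOSB (-1.39) and JUN (0.49) were lost when 1 library or another was left out. EGR1 then lay between -1.57 and -0.38, FOSB between -1.68 and -0.87 and JUN between 0.31 and 0.79.

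Transcripts of the mitochondrial genome, which are enclosed by both mitochondrial membranes, were lower without exception among the genes tested. All 13 mRNAs and both rRNAs passed, against 19.6% of all genes, with medians of -3.06 and -3.41, and the no-probe capture had medians of -0.16 and -0.67. MT-CO3, a subunit of cytochrome c oxidase, stood at 352 and 315 CPM in the captures, 2608 and 3006 CPM in the inputs and 1568 and 2212 CPM without probe (-3.07 ± 0.24, adjusted p = 6.5e-11). MT-ATP8, of ATP synthase, had the lowest value of the mRNAs (-3.47 ± 0.27) and MT-ND5, of complex I, the highest (-2.47 ± 0.21). The rRNAs MT-RNR1 and MT-RNR2 had values of -3.28 ± 0.28 and -3.53 ± 0.30. Since 2 nuclear copies of MT-RNR2, MTRNR2L12 at -3.65 ± 0.27 and MTRNR2L8 at -3.31 ± 0.49, are nearly identical to it, their values are uncertain.

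Most small noncoding RNAs were lower. Of 78 small nucleolar and Cajal body RNAs, which guide the modification of other RNAs, 75 were lower (96.2%, against 19.6% of all genes). Their median was -3.50. Of 13 spliceosomal snRNAs 12 were lower (92.3%), with a median of -4.38. RNU4-1 stood at 40.9 and 28.5 CPM in the captures and 1238 and 919 CPM in the inputs (-4.96 ± 0.49, adjusted p = 5.62e-09), and its no-probe captures were far apart, at 430 and 1234 CPM. SNORD89 had 1 and 3 reads in the captures against 35 and 42 in the inputs (-5.13 ± 0.67), and SNORD9 had none in the captures against 22 and 14. Small RNAs of the cytoplasm were lower as well, 9 of 9 tested, with a median of -3.26. RNY4, a Y RNA bound by Ro60, stood at 13.8 and 13.1 CPM against 399 and 254 CPM (-4.60 ± 0.52, adjusted p = 8.67e-08), and BCYRN1, the neuronal BC200 RNA, was lower by -2.30 ± 0.52, but not without input replicate 2 (adjusted p = 0.0594). Many of these RNAs have near-identical copies, among which counting may split or drop reads. Of 194 tested genes with a longest transcript under 300 nt 153 were lower and 1 higher, with a median of -3.26, and length and class cannot be told apart among them.

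Most mRNAs of ribosomal proteins were lower. Of 76 tested 62 fell (81.6%, against 19.6% of all genes) and none rose, with a median of -0.88 against -0.26 in the no-probe capture, and 45 of the 62 were also below the no-probe capture. RPS27 stood at 62.8 and 59.9 CPM in the captures and 251 and 257 CPM in the inputs (-2.05 ± 0.24, adjusted p = 1.1e-07). Its no-probe capture over input was -0.82 on the log2 scale, a difference that did not pass. RPS29 (-1.92 ± 0.17), RPLP2 (-1.69 ± 0.19), RPL41 (-1.68 ± 0.19) and RPL39 (-1.62 ± 0.21) were among the others that fell. RPL36A had the lowest value, -2.46 ± 0.32, at 3.34 and 4.43 CPM against 25.4 and 17.4 CPM. RPL5 had the highest, with 1179 and 1108 CPM against 949 and 923 CPM (0.29 ± 0.19, adjusted p = 0.223). Many have processed pseudogenes that can take their reads. RPL7L1, a paralogue of RPL7, rose by 0.94 ± 0.17 (adjusted p = 7.23e-05), the 1 of 7 tested paralogues to pass.

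Ribosomal protein mRNAs are known for a terminal oligopyrimidine (TOP) start, a C followed by pyrimidines that puts their translation under mTOR control. Several translation factors are known for the same kind of start. Of 15 factors listed for it 3 were higher and 2 lower (13.3%, against 19.6% of all genes), with a median of 0.00. EEF2, the translocation factor, stood at 2983 and 3093 CPM in the captures and 3115 and 3011 CPM in the inputs (-0.01 ± 0.18), and EEF1A1, which delivers aminoacyl-tRNA, at 5335 and 5476 CPM against 4011 and 4118 CPM (0.41 ± 0.19, adjusted p = 0.0745). EIF4B, a cofactor of the eIF4A helicase, rose from 478 and 461 CPM to 891 and 798 CPM (0.85 ± 0.19, adjusted p = 0.000559). The 2 that fell were EIF3F (-0.58 ± 0.19) and RACK1 (-0.51 ± 0.18), and both calls were lost when 1 library or another was left out. The first bases are shown for 3 ribosomal protein genes that fell and for EEF2, EEF1A1 and EIF4B, 3 factors that did not. They show the shared start beside unlike values. Each line gives 10 bases before and 20 after the RefSeq start (GRCh38.p14), with the pyrimidine run from the start in capitals:
RPS27, chr1:153990752-153990781, plus strand: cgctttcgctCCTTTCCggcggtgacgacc
RPLP2, chr11:809957-809986, plus strand: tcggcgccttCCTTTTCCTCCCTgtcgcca
RPL39, chrX:119791611-119791640, minus strand: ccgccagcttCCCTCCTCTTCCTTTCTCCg
EEF2, chr19:3985444-3985473, minus strand: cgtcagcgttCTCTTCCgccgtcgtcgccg
EEF1A1, chr6:73521013-73521042, minus strand: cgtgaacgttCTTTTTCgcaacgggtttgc
EIF4B, chr12:53006446-53006475, plus strand: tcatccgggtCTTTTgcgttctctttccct

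A start with C and a pyrimidine run of at least 5 was found in 40 of 60 ribosomal protein genes with a RefSeq start (66.7%), in 8 of 9 of the factors (88.9%), in 5.35% of 9813 tested protein-coding genes and in 4.04% of all RefSeq starts. Of the 40 ribosomal protein genes 36 were lower, with a median of -0.91, while RPL21, RPS6, RPS3A and RPS3 were not called. Of the other 485 genes with such a start 131 were higher and 94 lower (27.0% and 19.4%), with a median of 0.07, against 27.2% and 15.1% and a median of 0.14 for genes without it. The annotated start need not be the one used in these cells, and a run found there describes the sequence only.

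Of 30 initiation factors 6 were higher and 3 lower (10.0%), against 22.9% and 19.6% of all genes, with EIF1AX (0.97 ± 0.21), EIF2S1 (0.87 ± 0.19) and the cap-binding EIF4E (0.84 ± 0.20) higher. EIF4A1 was the lowest (-2.48 ± 0.27), but 49% of its exonic length overlaps other genes, and its level of 21.5 and 26.7 CPM in the inputs is therefore uncertain. Of 20 aminoacyl-tRNA synthetases 8 were higher and none lower (40.0%), with TARS at 1.11 ± 0.17 and EPRS at 1.10 ± 0.18.

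Nuclear genes of oxidative phosphorylation, whose mRNAs are translated in the cytoplasm, were mostly lower. Of 73 tested 39 fell (53.4%) and 3 rose (4.11%), with a median of -0.62 against -0.19 without probe. COX6B1, of cytochrome c oxidase, stood at 20.4 and 19.2 CPM against 55.9 and 55.7 CPM in the inputs (-1.50 ± 0.24, adjusted p = 1.4e-05), and ATP5MC1, of the ATP synthase ring, fell by 1.43 ± 0.20 on the log2 scale. NDUFA5, of complex I, rose by 0.62 ± 0.17 (adjusted p = 0.00353). Genes of mitochondrial ribosomal proteins gave 13 higher and 14 lower of 74 (17.6% and 18.9%, against 22.9% and 19.6% of all genes). Their median was -0.07. Replication-dependent histone mRNAs, which end in a stem-loop in place of a poly(A) tail, gave 22 lower and none higher of 49 (44.9%), with a median of -0.59 and a median of -0.45 without probe, and only 1 of the 22 was also below the no-probe capture. Of 17 genes of glycolysis 4 were lower and 1 higher (23.5% and 5.88%), GAPDH falling from 625 and 627 CPM to 343 and 383 CPM (-0.79 ± 0.19, adjusted p = 0.0017). Of 31 proteasome subunits 4 were higher and 1 lower (12.9% and 3.23%), and of 14 SR splicing factors 2 and 1 (14.3% and 7.14%), against 22.9% and 19.6% of all genes.

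**Figure D4:**
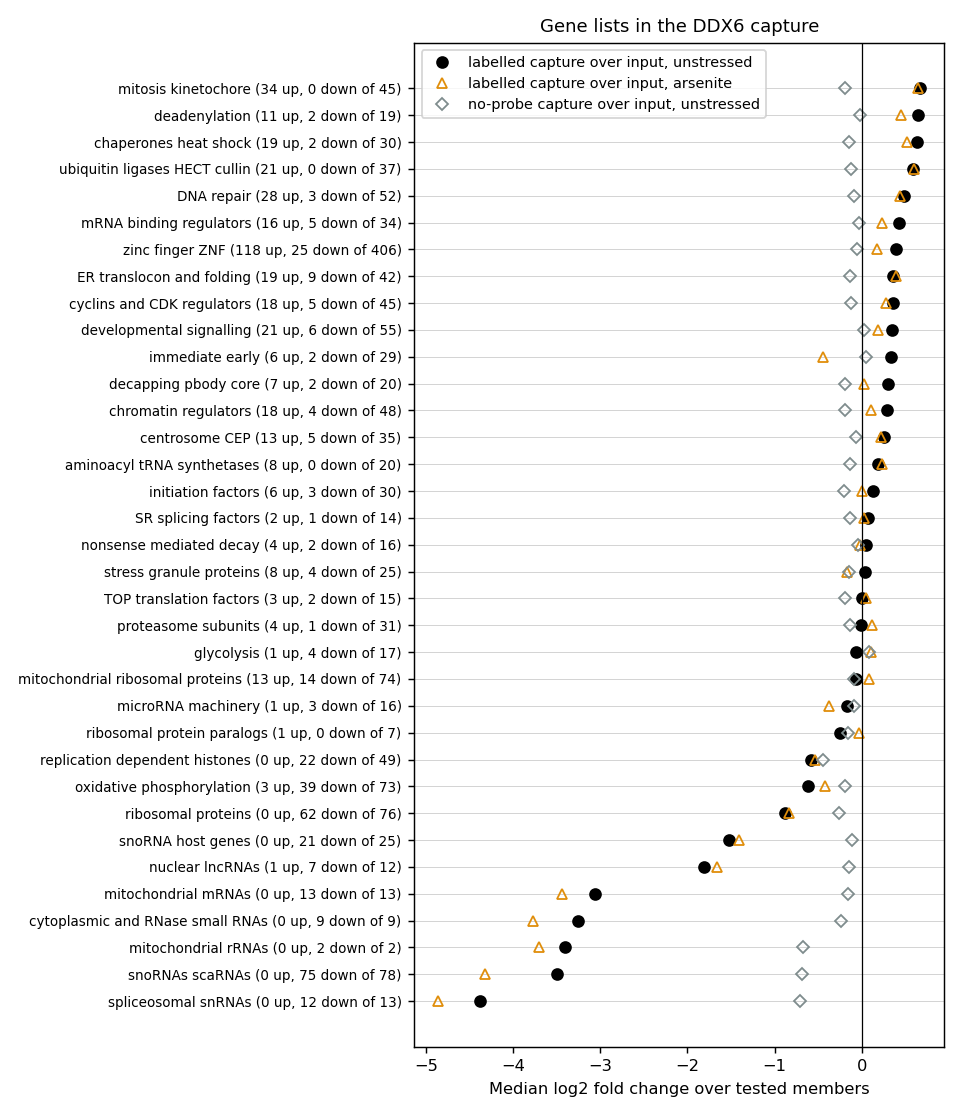
Median log2 fold change over the tested members of 35 gene lists for the labelled capture over input without stress (black) and under arsenite (orange), and for the no-probe capture over input without stress (grey diamonds), with the numbers called higher and lower without stress at the left. Medians ran from 0.67 for mitosis and kinetochore genes to -4.38 for spliceosomal snRNAs, and the no-probe medians lay between -0.71 and 0.09.

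The capture varied with base composition across protein-coding genes. Over 12326 nuclear protein-coding genes the median GC content of the longest annotated transcript was 41.5% in the higher genes, 57.2% in the lower genes and 48.1% in all. The last positions of codons held 43.1%, 72.5% and 58.9% G or C in the same order, and 3′ UTRs 35.9%, 53.6% and 42.5%. In the decile of genes with the lowest GC content 57.8% were higher and 3.65% lower, with a median of 0.67, and in the decile with the highest 1.38% were higher and 37.1% lower, with a median of -0.53. The no-probe capture over input went the other way, from a median of -0.11 in the lowest decile to 0.33 in the highest. Spearman's rho with GC content across genes was -0.57 for the labelled capture and 0.41 for the no-probe capture over the same inputs, and -0.60 for the arsenite DDX6 capture. These are descriptions across genes, which are not independent replicates and share libraries and amplification, and the part of library preparation in them was not tested.

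**Figure D5:**
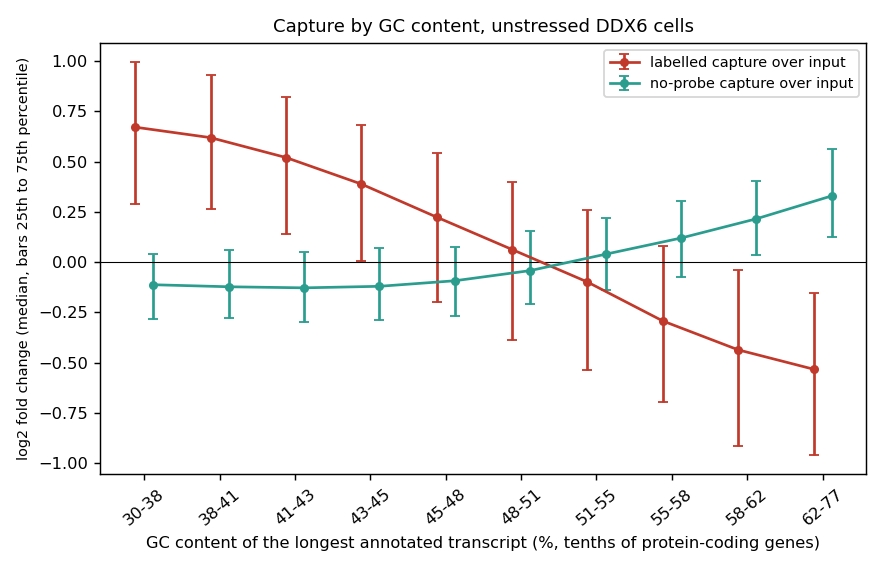
Median log2 fold change over input, with bars from the 25th to the 75th percentile, of nuclear protein-coding genes in deciles of GC content, for the labelled capture (red) and the no-probe capture (green). The labelled medians fell from 0.67 to -0.53 with rising GC content, while the no-probe medians went from -0.11 to 0.33; both share the 2 inputs.

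In 17 lists the highest and the lowest member were protein-coding genes with opposite calls, and in 14 of these the lower gene had the higher GC content. The other 3 went the opposite way: DDX6 (40.0%) with NBDY (36.1%), YTHDF3 (38.8%) with HNRNPD (36.1%), and SRSF8 (43.9%), whose call was lost without input replicate 1 (adjusted p = 0.0504), with SRSF5 (40.4%). Among the 14 pairs, PARN, CNOT3, DICER1, CEP164, OGG1, HK2, ALDOC and PSMB2 each lost the call when 1 library or another was left out. From the 14, DICER1 and DGCR8, SMG8 and SMG9, and TGFBR1 and HES4 were picked to show the difference in coding sequence, with their values known. Codons 101 to 130 of the longest annotated coding transcript (GENCODE release 29, GRCh38) are given for each, with G or C at the last position of a codon in capitals and the span of the gene in the name:
DICER1 (higher), chr14:95086228-95158010, minus strand: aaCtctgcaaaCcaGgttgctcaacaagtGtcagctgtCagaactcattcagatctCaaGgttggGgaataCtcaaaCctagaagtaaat
DGCR8 (lower), chr22:20080232-20111877, plus strand: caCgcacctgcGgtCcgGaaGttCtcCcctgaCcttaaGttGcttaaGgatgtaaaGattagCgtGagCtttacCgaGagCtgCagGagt
SMG8 (higher), chr17:59209400-59215247, plus strand: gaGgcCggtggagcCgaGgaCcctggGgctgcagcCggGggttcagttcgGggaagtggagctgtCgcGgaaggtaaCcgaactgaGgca
SMG9 (lower), chr19:43727992-43754990, minus strand: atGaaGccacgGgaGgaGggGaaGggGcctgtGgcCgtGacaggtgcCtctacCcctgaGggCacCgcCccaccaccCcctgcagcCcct
TGFBR1 (higher), chr9:99104038-99154192, plus strand: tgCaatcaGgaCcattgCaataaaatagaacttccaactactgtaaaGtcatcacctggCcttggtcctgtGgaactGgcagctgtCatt
HES4 (lower), chr1:998962-1000172, minus strand: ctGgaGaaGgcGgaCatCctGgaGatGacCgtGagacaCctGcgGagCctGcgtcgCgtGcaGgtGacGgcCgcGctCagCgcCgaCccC

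Of these 30 codons 10 ended in G or C in DICER1 and 20 in DGCR8, 13 in SMG8 and 19 in SMG9, and 9 in TGFBR1 and 28 in HES4. Over the whole coding sequence the shares were 40.1% and 61.9%, 42.9% and 66.6%, and 39.9% and 88.7%.

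Length went with the capture less closely. The median length of the longest transcript was 4443 nt in the higher genes, 3129 nt in the lower genes and 3844 nt in all, and that of its 3′ UTR 2220, 791 and 1474 nt. Among genes below the median GC content of 48.1% 1867 of 3736 long ones and 946 of 2427 short ones (39.0%) were higher, and among those above it 7.43% and 6.37%. The Pumilio element TGTANATA was present in the 3′ UTR of 49.0% of the higher, 14.3% of the lower and 31.7% of all genes, and the AU-rich pentamer ATTTA stood at a median of 2.82, 0.26 and 1.71 per kb. Both motifs are rich in A and T, so their share moves with base composition and, for the first, with length.

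When the trend with GC content was taken off each gene, a step chosen after seeing the data, the medians of many lists moved, 20 of 35 by more than the spread between replicates, and 3 others changed sign past it. That of mitosis genes went from 0.67 to 0.40, of deadenylation genes from 0.65 to 0.24, of chaperones from 0.63 to 0.36, of ubiquitin ligases from 0.59 to 0.33, of DNA repair genes from 0.49 to 0.18 and of mRNA-binding regulators from 0.43 to 0.16. The median of cyclins went from 0.36 to 0.052, of ER genes from 0.36 to 0.17, of chromatin regulators from 0.29 to 0.096 and of CEP genes from 0.26 to -0.050. The decapping and P-body list went from 0.30 to 0.37, and ribosomal proteins from -0.88 to -0.85. When the trend with transcript length was taken off, the median of snoRNAs and scaRNAs went from -3.50 to -0.57 and of snRNAs from -4.38 to -1.38. The trend was fitted over all tested genes, and only 2 of the 194 under 300 nt are protein-coding. At that end it holds the small RNA classes themselves, so taking it off does not separate length from class. The median of nuclear oxidative phosphorylation genes went from -0.62 to -0.21, of histones from -0.59 to 0.36 and of mitochondrial mRNAs from -3.06 to -2.33.

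The same cells were also labelled under arsenite, which stalls translation and makes stress granules form. There 2935 genes were higher and 2485 lower than input (20.4% and 17.3%). The difference between the 2 enrichments, unstressed minus arsenite, has a median SE of 0.35 on the log2 scale, and it passed for 2 genes upward (0.0139%) and 1 downward (0.00696%), with 604 genes (4.21%) at an unadjusted p under 0.05 and 2 and 1 by DESeq2. A difference that did not pass is not shown to be absent.

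RPL22L1, a paralogue of the ribosomal protein RPL22 (chr3:170864875-170870483, minus strand), stood at 38.1 and 40.7 CPM in the unstressed captures and 45.2 and 48.6 CPM in the unstressed inputs. Under arsenite it stood at 145 and 163 CPM in the captures and 51.0 and 45.0 CPM in the inputs. The enrichments were -0.25 ± 0.17 and 1.68 ± 0.16, and their difference was -1.93 ± 0.23 (adjusted p = 2.88e-05). It passed without each of the 8 libraries in turn, with a largest adjusted p of 0.00148.

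XBP1, the transcription factor of the unfolded protein response whose mRNA is spliced at the ER (chr22:28794555-28800597, minus strand), stood at 199 and 221 CPM in the unstressed captures and 77.4 and 70.5 CPM in the inputs (1.50 ± 0.20, adjusted p = 1.11e-06). Under arsenite it stood at 96.4 and 98.2 CPM in the captures and 101 and 94.2 CPM in the inputs (-0.01 ± 0.20). The difference of 1.51 ± 0.28 passed (adjusted p = 0.0366) but was lost without any 1 of the 8 libraries (largest adjusted p = 0.564, without unstressed input replicate 2). PNRC1, a proline-rich nuclear coregulator related to PNRC2 (chr6:89080751-89085160, plus strand), stood at 54.7 and 55.6 CPM against 24.6 and 24.8 CPM without stress (1.16 ± 0.18), and at 42.7 and 31.9 CPM against 51.4 and 38.1 CPM under arsenite (-0.25 ± 0.17). Its difference of 1.41 ± 0.25 passed (adjusted p = 0.022) and was lost in 6 of the 8 cases (largest adjusted p = 0.349, without arsenite input replicate 1).

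For the members described above the enrichments stood side by side at 2.1 and 1.70 for DDX6, 1.45 and 0.88 for NORAD, 1.08 and 1.09 for DCP2, 1.21 and 1.24 for PNRC2, 0.64 and -0.26 for EDC3 and 2.09 and 1.03 for MARCH7, without stress and under arsenite. None of these differences passed. List medians were 0.67 and 0.65 for mitosis genes, 0.65 and 0.45 for deadenylation genes, 0.30 and 0.02 for the decapping and P-body list, -0.88 and -0.83 for ribosomal proteins, -3.06 and -3.44 for mitochondrial mRNAs and 0.34 and -0.44 for immediate early genes. Differences between list medians were not tested.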

How the data were processed

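The authors deposited raw counts for each gene as whole numbers, with gene IDs of Ensembl 87, per the file headers. Per the submitters' processing notes, the authors used cutadapt 1.18, FastQC 0.11.8, HISAT2 2.1.0, SAMtools and HTSeq 0.7.2 with GRCh38. Strand setting and multiply mapped reads are not given in the sources used here, and the kit in the labels' protocols is not one that marks strand, so counts of overlapping genes and near-identical copies are uncertain. Groups came from the labels.

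Of 57992 genes 57388 matched GENCODE release 29, which gave names, positions and transcripts, and 39646 had a count. Counts were fitted in edgeR 4.0.16 (R 4.3.3) by quasi-likelihood over all 24 libraries in 12 groups, with TMM scaling (trimmed mean of M values) and the 14360 genes kept by filterByExpr. There were 12 residual degrees of freedom. The coefficient of variation between replicates beyond counting noise, common to all genes, was 12.9% and may be technical. Tests were two-sided, with Benjamini-Hochberg adjustment over the 14360 genes and a threshold of 0.05. Calls and estimated folds were checked on simulated counts in which few genes changed, as many up as down. That setting is unlike these captures, so the check does not cover the choice of scaling. DESeq2 1.42.0 was an alternative. Reads carry no molecular identifiers, so counting error is a lower limit.

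A rule selected the 12 largest rises and 14 largest falls at 10 CPM or more, and the P-body list. It added the highest and lowest member of each list, the 5 most abundant genes, and those called between treatments or without probe. Not all of these genes are named above. Other members of the lists were picked after their values were seen. The members and lists were chosen with earlier results of these data known. Lists are described by counts and medians, with no set test. Libraries were not paired in the main fit, although each input was part of a labelled RNA that was also captured. A fit with a block for each replicate number was an alternative.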

Additional observations from a re-analysis of the deposited data

Results flagged for a closer look

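Between the unstressed and the arsenite DDX6 cells 3 genes differed in enrichment by a test of the difference itself. RPL22L1 differed by -1.928 on the log2 scale (unstressed minus arsenite), and in the no-probe captures under arsenite it stood at 45.7 and 43.2 CPM, near its inputs. XBP1 differed by 1.508 and PNRC1 by 1.406. For XBP1 the arsenite inputs were at 101 and 94.2 CPM against 77.4 and 70.5 CPM without stress, and for PNRC1 at 51.4 and 38.1 CPM against 24.6 and 24.8 CPM, so both terms of each difference moved. The causes were not tested.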

How the results depend on the processing

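Counts are given as higher and lower. Labelled capture over input gave 5863 and 1205 under total-count scaling and 33 and 433 beyond 1 on the log2 scale (glmTreat). Leaving out 1 library gave 2258 to 2685 and 1638 to 1873. Over the no-probe capture, 2004 genes were lower under total counts, glmTreat gave 97 and 570, and leaving out 1 library 2914 to 3236 and 2177 (without labelled capture replicate 1) to 2340. Higher than both were 4635 under total counts, 23 by glmTreat and 2097 to 2539 without 1 library. The no-probe capture over input gave 15 and 36 without a filter, 235 and 201 with the 6 unstressed libraries alone, 5 and 3 by DESeq2, 0 and 0 by glmTreat, and 0 to 1 and 0 to 12 without 1 library. The unstressed against arsenite difference gave 12 and 5 without a filter, 1 higher with DESeq2 size factors, 0 higher under total counts or with the 12 DDX6 libraries alone, 0 and 0 by glmTreat, and 0 to 2 and 1 to 2 without 1 library. Same-numbered replicates did not deviate together (correlations -0.005, -0.032 and 0.005). Noise of single libraries can hide a shared origin, so these values cannot show whether same-numbered libraries came from the same RNA. The replicate block gave 3731 and 3188 over input, 20 and 13 for the no-probe capture and 5 and 1 for the difference between treatments. Medians changed sign under total counts for microRNA genes (0.29), ribosomal protein paralogues (0.21) and mitochondrial ribosomal proteins (0.39), and EEF2 rose to 0.45. With the length trend removed they did so for the paralogues (0.20), mitochondrial ribosomal proteins (0.22) and histones (0.36). With the GC trend removed, an alternative chosen after seeing the data, they did so for initiation factors (-0.033), CEP genes (-0.050) and SR factors (-0.45), which were at -0.019 with protein-coding scaling. Without 1 library the median of mitochondrial ribosomal proteins lay between -0.035 and 0.031, above 0 without labelled capture replicate 1 (0.0085) or input replicate 1. Of the 70 counts over lists, 45 moved by over 1.5 times under total counts, 20 with the 6 libraries alone, 7 with DESeq2 size factors and 13 to 23 without 1 library, most without input replicate 1. List medians moved by more than the replicate spread in 31 of 35 under total counts, 18 with DESeq2 size factors, 25 with the length trend removed and 8 to 11 without 1 library. The cause of these changes was not tested. The no-probe captures, with as few as 1712475 counts, limit the comparison of rare RNAs.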
